A study of Mus musculus with 15 samples.

Results

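The genes described here are 6 protease inhibitors of the Serpina3 cluster on mouse chromosome 12, namely Serpina3f, Serpina3g, Serpina3h, Serpina3i, Serpina3m and Serpina3n. Every probe whose gene name in the scanner files is one of these was taken, which gave 8 of the 55681 probes of the array: 2 each for Serpina3f and Serpina3i and 1 each for the other genes. The set was chosen by the measured Serpina3f level, which was much higher with active CRHR1 than in the control, so for these genes the values of the active CRHR1 arrays are given as a description. Counts of these probes past the threshold in a comparison with those arrays are printed beside the share of all probes, and nothing is read from them. The comparison of the knockout with the control was not used in that choice and is tested, although it uses the same control arrays.

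RNA of the whole olfactory bulb was measured in 15 male mice aged 6 to 8 weeks, 1 array per mouse and 5 mice per group, 2 weeks after injection of 500 nL of adeno-associated virus. The knockout group was CRHR1-/- on strain 129S4/SvJae and received AAV-FLEX-GFP, the control group (Cre GFP) was CRHR1-Cre on C57Bl/6 with the same virus, and the active CRHR1 group was CRHR1-Cre on C57Bl/6 with AAV-FLEX-(CA)CRHR1, a constitutively active form of the receptor for corticotropin releasing hormone. A FLEX virus expresses its cargo only in cells with Cre, here CRHR1+ granule cells per the labels. The labels name Cre in the Cre GFP and active CRHR1 groups only, so expression of the GFP cargo in the knockout is not given by them. All 3 groups carried a virus, and no group without injection was analysed here. The knockout differs from the other groups in strain as well as in Crhr1, and those cannot be told apart.

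Serpins are inhibitors that a protease cuts and that then hold the protease in a covalent complex. Humans have a single SERPINA3, which encodes alpha-1-antichymotrypsin, whereas in the mouse this gene has been duplicated into a cluster whose members differ in the loop that the protease attacks. Serpina3n is secreted, inhibits granzyme B among other proteases, and is widely used as a marker of reactive astrocytes. Serpina3g (also called Spi2A) acts inside cells on lysosomal cathepsins and is induced by interferon gamma and by NF-kB in immune cells.

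The genes are close copies of each other, so the probes are shown first. In mouse build mm9, as the scanner files give it, the probes lie on chromosome 12 at chr12:105458989-105459048 (Serpina3f, A_55_P2104975), chr12:105480045-105480104 (Serpina3g, A_51_P326191), chr12:105491733-105491792 (Serpina3h, A_55_P2142222), chr12:105492556-105492615 (the second Serpina3f probe, A_55_P2142226), chr12:105504738-105504797 (Serpina3i, A_55_P1966774), chr12:105506705-105506764 (the second Serpina3i probe, A_55_P2142232), chr12:105632110-105632169 (Serpina3m, A_55_P2161410) and chr12:105651918-105651977 (Serpina3n, A_51_P159453). Whether a probe lies in coding or untranslated sequence was not determined. The second Serpina3f probe starts 823 bases after the Serpina3h probe and 33567 bases from the first Serpina3f probe, and the files list the Serpina3h transcript for it as well. RefSeq lists Serpina3h as a transcribed pseudogene. The first 30 bases, 5′ to 3′, of the probes whose readings the results turn on, with the whole of the Serpina3i probe, are as follows.
Serpina3f, A_55_P2104975: aaggtttaagaagggaacctgcaactgtgg
Serpina3g, A_51_P326191: tgtctcttgttgaccaactacgtaggactg
Serpina3n, A_51_P159453: ttggcatgcctggattagatagtgactaac
Serpina3i, A_55_P1966774: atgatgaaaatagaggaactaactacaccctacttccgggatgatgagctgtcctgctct

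Among all pairs with a member, the most alike probes were those of Serpina3h and the second of Serpina3i, which match at 51 of 57 aligned bases (89.5%) with a longest shared run of 22 bases. They are shown aligned, with the 6 differing bases in capitals. Whether either probe binds the RNA of the other gene was not tested.
Serpina3h, A_55_P2142222: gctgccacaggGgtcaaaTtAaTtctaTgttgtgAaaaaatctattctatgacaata
Serpina3i, A_55_P2142232: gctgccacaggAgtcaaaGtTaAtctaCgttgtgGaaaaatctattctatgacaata

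Levels are log2 of the processed signal minus the array's own 75th percentile, so 0 is the level of that percentile. Levels are compared between groups within a probe and never between probes. A spot is called measured where the scanner program marked it well above background. Of the 8 probes, 5 were measured on at least 4 of the 5 arrays of some group and entered the test with 33968 probes in all. The 3 that did not are the second probes of Serpina3f and Serpina3i and the probe of Serpina3m. The share of all probes measured was between 58.7% and 66.9% on the 15 arrays. The arrays lie on 2 slides. Slide 1 holds the 5 knockout arrays with Cre GFP arrays 1 to 3, and slide 2 holds Cre GFP arrays 4 and 5 with the 5 active CRHR1 arrays. No slide holds both knockout and active CRHR1 arrays, so a direct comparison of those 2 groups is also one of slides. As a check of the labels, the 2 Crhr1 probes fell by 0.47 and 0.47 (log2) in the knockout relative to Cre GFP (SE 0.092 and 0.099, limma adjusted p = 0.0134 and 0.021). They differed by 0.09 and 0.08 in active CRHR1 (adjusted p = 0.548 and 0.641). Whether these probes lie in the deleted part, or detect the viral form, was not determined.

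**Figure D1:**
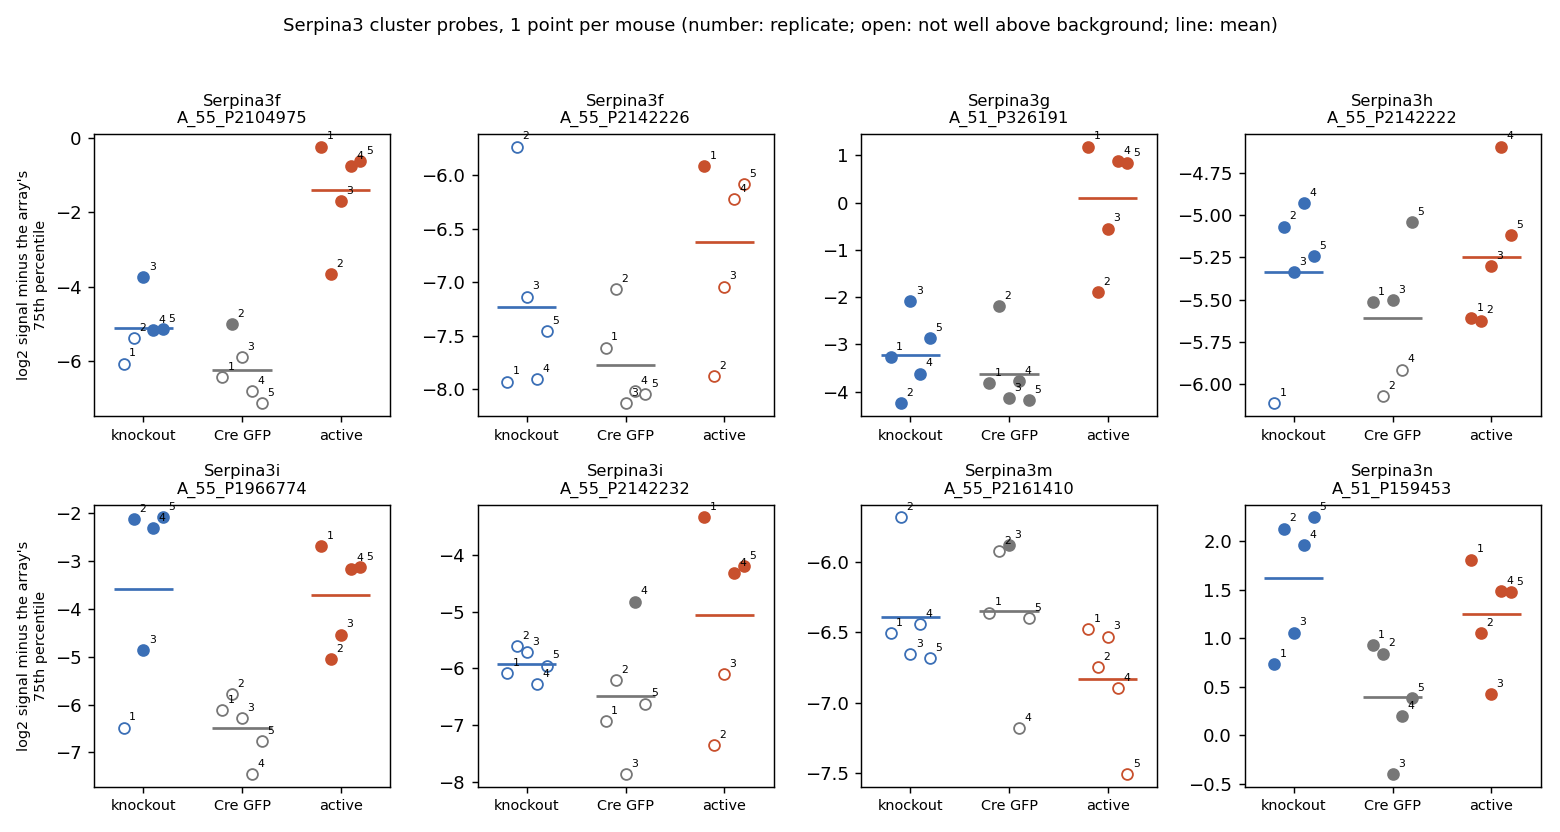
Level of each of the 8 probes by group (log2 signal minus the array's 75th percentile), 1 point per mouse with its replicate number, open where the spot was not well above background and with a line at the mean of 5. Active CRHR1 points of Serpina3f (A_55_P2104975), Serpina3g and Serpina3i (A_55_P1966774) sit above every Cre GFP point, while those of Serpina3n overlap both other groups.

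Serpina3f and Serpina3g were far higher in the bulbs with active CRHR1 than in either other group. Serpina3f is a close relative of Serpina3g. On probe A_55_P2104975 the active CRHR1 arrays 1 to 5 read -0.24, -3.66, -1.71, -0.77 and -0.63. The Cre GFP arrays read -6.43, -5.00, -5.88, -6.81 and -7.13, and the knockout arrays -6.07, -5.38, -3.74, -5.17 and -5.14. All 5 active arrays exceeded all arrays of the other groups, the nearest approach being active array 2 and knockout array 3. The probe was measured on 5 of 5 active, 3 of 5 knockout and 1 of 5 Cre GFP arrays, so most of the control values lie at background. The mean was -1.40 ± 1.37 with active CRHR1, -6.25 ± 0.84 in Cre GFP and -5.10 ± 0.85 in the knockout (SD, n = 5 each). The difference of active CRHR1 from Cre GFP was 4.85 (SE 0.61), and without active array 2 it was 5.41. With 4 of 5 control readings at background, no fold is given. It was 2.18 with normexp background correction, which adds an offset of 50 and compresses dim signals.

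Serpina3g, the intracellular inhibitor of cathepsins, was measured on all 15 arrays. Its active CRHR1 arrays 1 to 5 read 1.18, -1.89, -0.55, 0.88 and 0.84, against -3.82, -2.20, -4.14, -3.78 and -4.18 in Cre GFP and -3.27, -4.24, -2.08, -3.62 and -2.87 in the knockout. As for Serpina3f, active array 2 was the lowest of its group and yet above every array of the others, by a small margin over Cre GFP array 2 and knockout array 3. The difference of active CRHR1 from Cre GFP was 3.72 (SE 0.59), 13.1-fold. From the knockout it was 3.31 (SE 0.59), and for Serpina3f 3.70 (SE 0.61). These 2 groups differ in slide and strain as well, and with slide as a fixed block the differences were 3.90 and 4.90.

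In the comparison of the knockout with Cre GFP neither gene passed the test. Serpina3f was higher by 1.15 (SE 0.61, limma adjusted p = 0.314, exact two-sided permutation p = 0.0794), with 1 of 5 knockout arrays above all Cre GFP arrays. Serpina3g differed by 0.41 (SE 0.59, adjusted p = 0.741, exact permutation p = 0.4286). With 5 arrays against 5 the exact test can go down to 0.0079. For both genes, then, active CRHR1 stood alone at the top and the order of the knockout and Cre GFP was within their spread.

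The second Serpina3f probe, A_55_P2142226, was measured on only 1 of 15 arrays, active array 1, and is given by its readings at background. Its active arrays 1 to 5 read -5.91, -7.88, -7.04, -6.22 and -6.08, with -8.13 to -7.06 in Cre GFP and -7.93 to -5.73 in the knockout. The 5 active arrays fell in the same order as on the first probe, and their range overlapped both other groups. Its mean was 1.15 higher in active CRHR1 than in Cre GFP.

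Serpina3n, the secreted inhibitor and astrocyte marker, was measured on all 15 arrays and had its highest mean in the knockout. The knockout arrays 1 to 5 read 0.73, 2.13, 1.06, 1.96 and 2.25. The Cre GFP arrays read 0.93, 0.84, -0.40, 0.19 and 0.39, and the active CRHR1 arrays 1.81, 1.06, 0.42, 1.49 and 1.48. Both in the knockout and with active CRHR1 4 of 5 arrays exceeded all Cre GFP arrays, and the ranges of the 3 groups overlap. The means were 1.63 ± 0.69 in the knockout, 1.25 ± 0.54 with active CRHR1 and 0.39 ± 0.54 in Cre GFP (SD, n = 5 each). The knockout exceeded Cre GFP by 1.24 (SE 0.35), 2.35-fold, which did not pass over all probes (limma adjusted p = 0.0679), with an exact two-sided permutation p of 0.0238 for this probe alone. Active CRHR1 exceeded Cre GFP by 0.86 (SE 0.35), 1.82-fold, and lay 0.37 (log2) from the knockout, less than the SD of either group.

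On its first probe, A_55_P1966774, Serpina3i was above every control array on all arrays with active CRHR1 and on 4 of 5 arrays of the knockout. The second probe, given below, did not show this. On the first probe no Cre GFP array was measured, with readings of -6.11, -5.79, -6.29, -7.45 and -6.76. The active CRHR1 arrays 1 to 5 read -2.68, -5.05, -4.54, -3.16 and -3.13, all measured and all above Cre GFP. The knockout arrays read -6.48, -2.13, -4.87, -2.31 and -2.09, of which array 1 was not measured and lay within the Cre GFP range. Knockout arrays 2, 4 and 5 were the 3 highest of all 15.

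Because the probe was at background on every Cre GFP array, its differences from that group are given as bounds against the lowest signal measured on those arrays or the reading itself, whichever was higher. Serpina3i was at least 4.93-fold higher with active CRHR1. In the knockout the bound was at least 5.41-fold higher, with a fitted difference of 2.91 (SE 0.79) that did not pass over all probes (limma adjusted p = 0.0608, exact two-sided permutation p = 0.0317 for this probe alone). The active CRHR1 and knockout means, -3.71 ± 1.02 and -3.58 ± 2.00 (SD, n = 5 each), differed by less than either SD. With slide as a block active CRHR1 was higher than the knockout by 0.91, and with normexp the differences from Cre GFP were 0.94 for active CRHR1 and 1.25 for the knockout.

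In the knockout comparison, then, 0 of the 5 tested probes of the cluster passed an adjusted p of 0.05 by limma, and 2 of them (Serpina3i and Serpina3n) had an unadjusted p under 0.05. Over all probes 3.37% passed. Both of the near misses depended on knockout array 1. Without it the Serpina3i difference was 3.63 (adjusted p = 0.00983) and the Serpina3n difference 1.46 (adjusted p = 0.0335). No omission of another array brought either under the threshold, the adjusted p then ranging up to 0.139 for Serpina3i and 0.16 for Serpina3n. Within slide 1, which holds all knockout arrays and 3 Cre GFP arrays, the differences were 2.49 and 1.17 (adjusted p = 0.398 and 0.361).

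The following counts describe the arrays by which the set was chosen and are no evidence about it. Serpina3f also entered the fit only through its active CRHR1 arrays. Between active CRHR1 and Cre GFP 3 of the 5 fitted probes lay past the threshold (Serpina3f, Serpina3g and Serpina3i, all higher), where 8.47% of all probes passed and 3.75% of all probes were higher. The same 3 had no overlap between the arrays of the 2 groups, as did 3.17% of all probes in the upward direction. Against the knockout, with the same active arrays, 2 of the 5 lay past it (Serpina3f and Serpina3g, both higher and without overlap), where 25.6% of all probes passed, 9.51% of all probes being higher and 6.87% higher without overlap. Within slide 2, which holds all active arrays and 2 Cre GFP arrays, the differences from Cre GFP were 5.57 for Serpina3f, 4.07 for Serpina3g and 3.40 for Serpina3i.

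**Figure D2:**
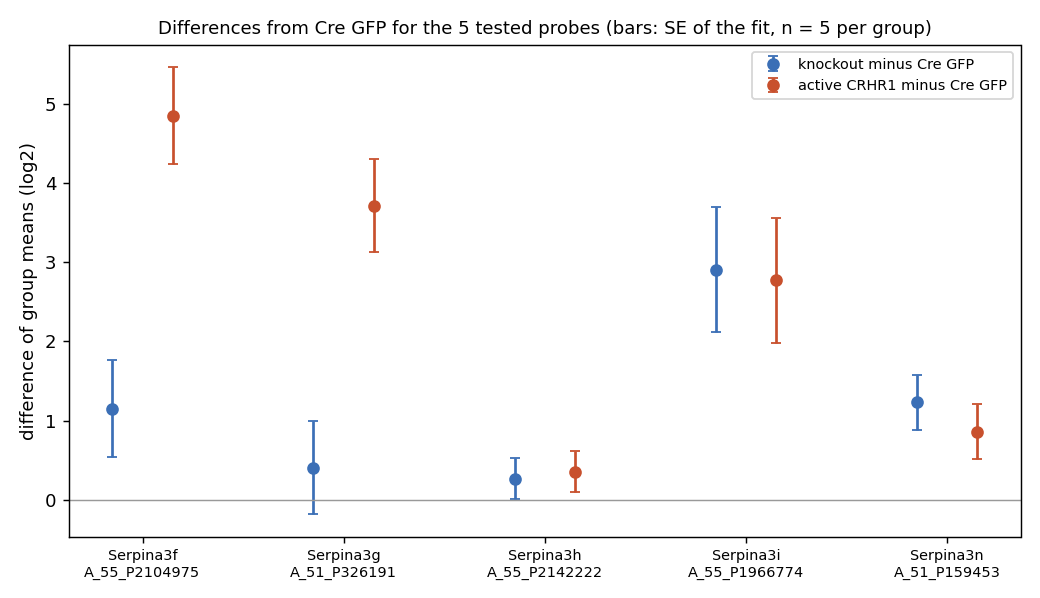
Difference of the knockout and of active CRHR1 from Cre GFP for the 5 tested probes (log2), with bars for the SE of the fit over 15 arrays (n = 5 per group). Serpina3f and Serpina3g are far higher with active CRHR1, at 4.85 and 3.72, while for Serpina3i and Serpina3n the 2 differences lie side by side.

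The remaining probes were dim. The Serpina3h probe, of the pseudogene, was measured on 5 active, 4 knockout and 3 Cre GFP arrays, and its groups overlapped, with ranges of -5.62 to -4.59, -6.11 to -4.93 and -6.07 to -5.04. Its differences from Cre GFP were 0.36 with active CRHR1 and 0.27 in the knockout (SE 0.26 each, adjusted p = 0.586 for the knockout). The probe next to it in the pseudogene's listed transcript is the second Serpina3f probe described above. The Serpina3m probe was measured on a single array, Cre GFP array 3, and ranged from -7.51 to -5.69 over the 15 arrays. Nothing can be said of Serpina3m at this signal.

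The second Serpina3i probe, A_55_P2142232, was measured on 3 active arrays and 1 Cre GFP array. Its active arrays 1 to 5 read -3.34, -7.36, -6.11, -4.32 and -4.21. Arrays 2 and 3 of these lay within the Cre GFP range of -7.86 to -4.82. Its knockout arrays lay between -6.27 and -5.61, none of them measured. The high readings of knockout arrays 2, 4 and 5 on the first probe were therefore not seen on the second, and in the knockout the probes of Serpina3i disagree. The second probe's mean was 1.42 higher in active CRHR1 than in Cre GFP and 0.56 higher in the knockout (exact two-sided permutation p = 0.3254).

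Arrays of 1 group also differed among themselves, and did so alike for some genes of the cluster. Around the group means, Serpina3f and Serpina3g followed each other over the 15 arrays (Pearson r = 0.88 after removing group means), as did Serpina3i and Serpina3n (r = 0.81). Serpina3f and Serpina3n did so less (r = 0.25). The genes did not form 2 separate pairs in each group. Within the 5 active arrays Serpina3i (A_55_P1966774) followed Serpina3g (r = 0.98) and Serpina3f (0.94) more closely than Serpina3n (0.82). Within the 5 knockout arrays it followed Serpina3n (0.99), whereas the second Serpina3i probe, not measured there, did not (0.06). These values describe 15 arrays, or 5 within a group, that share scaling and slides, and no test is attached. In the knockout, arrays 2, 4 and 5 were highest for Serpina3i and Serpina3n and array 3 for Serpina3f and Serpina3g. In active CRHR1, array 1 was highest for Serpina3f, Serpina3g, Serpina3i and Serpina3n.

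**Figure D3:**
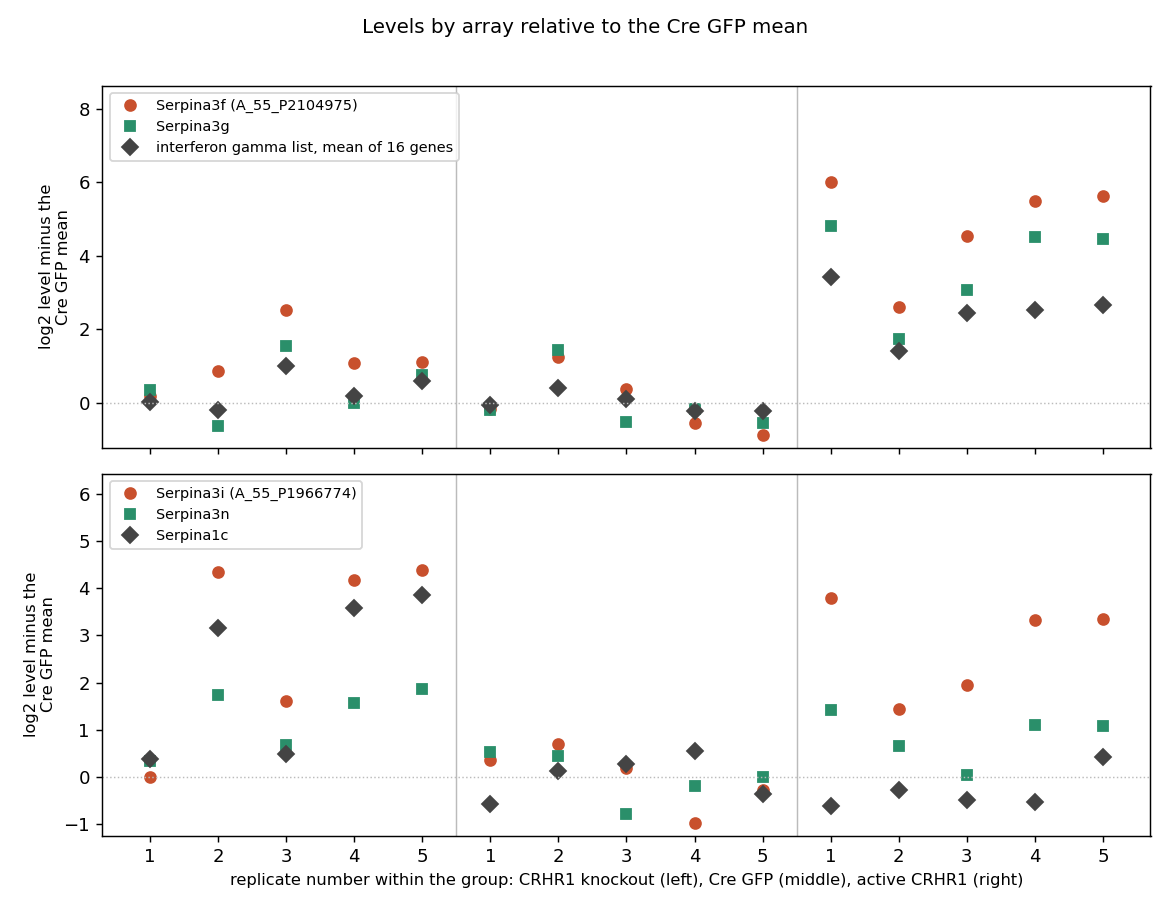
Level by array relative to the Cre GFP mean (log2), for Serpina3f, Serpina3g and the mean of 16 genes of the interferon gamma list (upper) and for Serpina3i, Serpina3n and Serpina1c (lower). In the upper panel the active CRHR1 arrays are highest and array 2 is the lowest of them, and in the lower panel knockout arrays 2, 4 and 5 are high for all 3 genes.

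The genes whose levels over the 15 arrays were most like those of Serpina3f (A_55_P2104975) were Ncf1, a subunit of the phagocyte NADPH oxidase (Pearson r = 0.988), Slc15a3, a lysosomal peptide and histidine transporter (0.988), Gm12250 (0.986), Tlr12, a Toll-like receptor (0.986), and H2-Q10, a class I histocompatibility gene (0.985). For Serpina3n they were Krtap11-1 (0.923), Susd3 (0.859), Crb2 (0.839), the purinergic receptor P2ry13 (0.835) and Prex2 (0.83). The best matches of Serpina3f thus followed it more closely than those of Serpina3n. The arrays share groups, so a gene with a large group difference gains a high r from that alone.

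Promoter sequence was at hand for 4 of the 6 genes, from RefSeq on GRCm38.p6, a different build from that of the probes. The 250 bases before each start were searched on both strands for TTCNNNGAA, the palindrome bound by STAT proteins. It occurs once before Serpina3f, Serpina3g and Serpina3i, at 121, 33 and 102 bases before the start (210 for a second start listed for Serpina3f), and not in that window before Serpina3n. Of 32851 promoters of the same length 7.02% hold it. The match is a description of letters and not of binding. The windows below, aligned on letters shared by all 4 promoters, are shown because they hold the match in Serpina3f, Serpina3g and Serpina3i, in capitals, and the aligned stretch of Serpina3n. All are on the plus strand.
Serpina3f, chr12:104214398-104214457: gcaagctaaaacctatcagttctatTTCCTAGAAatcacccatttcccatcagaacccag
Serpina3g, chr12:104236089-104236146: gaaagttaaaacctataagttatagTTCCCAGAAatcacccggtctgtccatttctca
Serpina3i, chr12:104262995-104263054: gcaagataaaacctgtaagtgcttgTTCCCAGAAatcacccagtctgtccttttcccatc
Serpina3n, chr12:104406560-104406619: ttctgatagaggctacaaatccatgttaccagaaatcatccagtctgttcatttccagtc

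Other motifs were rarer in the cluster. The interferon-stimulated element, searched as GAAA, any 2 bases and GAAA, was found in none of the 4 promoters (2.98% of all promoters hold it). The NF-kB consensus was found before Serpina3g and Serpina3i, at 85 and 154 bases before the start, and 3.9% of all promoters hold it. The windows before Serpina3a, Serpina3b, Serpina3c and Serpina3j, cluster genes that are not in the set, hold no TTCNNNGAA.

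Of the 7 pathway lists examined, which cover other serpins, their target proteases and the signals known to induce the cluster, that of the interferon gamma axis had the highest median with active CRHR1. Of its 16 tested genes 14 rose and 0 fell relative to Cre GFP (limma, adjusted p under 0.05 over all probes), with a median difference of 2.73, where 5.19% of the 16566 tested genes rose, 6.12% fell and the median was -0.09. Ifng, the cytokine itself, rose by 4.25 (SE 0.62, adjusted p = 0.000913), Nlrc5, the activator of class I histocompatibility genes, by 4.26 (SE 0.44, adjusted p = 0.000237), and the interferon-induced GTPases Igtp and Iigp1 by 4.13 (SE 0.45) and 3.93 (SE 0.48). In the knockout 0 of the 16 passed by limma, 2 having an unadjusted p under 0.05, and the median was 0.32. Within slide 2 alone, with 2 control arrays, 8 of the 16 rose with active CRHR1.

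The mean level of this list by array ran alongside Serpina3f and Serpina3g. It was 2.63, 0.61, 1.65, 1.72 and 1.85 on active arrays 1 to 5, between -1.04 and -0.39 on the Cre GFP arrays and between -0.99 and 0.19 on the knockout arrays. The lowest active array was again array 2, the highest Cre GFP array was array 2 and the highest knockout array was array 3, the same arrays as for Serpina3f and Serpina3g. This order was not particular to the list. The mean log2 level of the T cell markers, described below, had the same arrays, at -2.63, -1.88 and -1.97. That of 7 endothelial markers had them too, at 0.93, 1.07 and 1.14. The reactive astrocyte list had active arrays 2 and 3 lowest (0.94 each) and knockout array 3 highest (0.90), but Cre GFP array 1 highest (0.71).

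The gp130 and NF-kB list, with the cytokines that act through STAT3 or NF-kB, rose in part. With active CRHR1 10 of 23 genes rose and 0 fell, with a median of 0.34. Tnf rose by 3.60 (SE 0.48), Il1b by 2.35 (SE 0.40), Il6 by 1.78 (SE 0.42) and the NF-kB cofactor Bcl3 by 1.69 (SE 0.26), with adjusted p from 0.000554 to 0.0195. In the knockout 3 of 23 rose and 0 fell, namely Cntf, a ligand of the gp130 family (0.54, SE 0.084, adjusted p = 0.0037), Osmr, the oncostatin M receptor (0.63, SE 0.15, adjusted p = 0.0394), and Il6st, which encodes gp130 (0.30, SE 0.075, adjusted p = 0.045). Within slide 2 only 1 rose with active CRHR1, and without active array 1 it was 6. The 3 calls of the knockout dropped to 1 without knockout array 3, 4 or 5 or Cre GFP array 1, 2 or 3. The knockout median was 0.10, where 2.51% of all genes rose, 1.76% fell and the median was 0.00451.

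Proteases of the classes that serpins of this family inhibit rose in 9 of 20 cases with active CRHR1, with 0 lower and a median of 0.29, and in 2 of 20 within slide 2. They included the cytotoxic granule proteases Gzmb (3.41, SE 0.69, adjusted p = 0.00828) and Gzma (2.85, SE 0.57, adjusted p = 0.00712) and the lysosomal cathepsins Ctsc (1.76, SE 0.25) and Ctss (1.45, SE 0.21). Gzmb was measured on all 5 active arrays, 1 knockout array and 1 Cre GFP array. In the knockout 2 of 20 rose, Klk8 (0.76, SE 0.10, adjusted p = 0.00133) and Ctsk (0.66, SE 0.12, adjusted p = 0.00801), and Gzmm fell by 0.42 (SE 0.082, adjusted p = 0.0138).

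Genes of reactive astrocytes, the list nearest to Serpina3n, rose with active CRHR1 in 8 of 11 cases with 0 lower and a median of 0.74. Cxcl10, a chemokine that is also induced by interferon, rose by 4.38 (SE 0.80), Osmr, which the previous list also holds, by 1.04 (SE 0.15), the hyaluronan receptor Cd44 by 0.95 (SE 0.23) and the filament gene Gfap by 0.87 (SE 0.21), with adjusted p from 0.000979 to 0.022. In the knockout Osmr and S1pr3 (0.54, SE 0.14, adjusted p = 0.0443) rose and 0 of the 11 fell. Within slide 2 only 1 of the 11 rose with active CRHR1, and without active array 5 it was 5. The upward calls in the knockout dropped to 0 or 1 of 11 whichever knockout or Cre GFP array was left out. The count of genes lower in the knockout was not firm either. It was 0 to 1 leaving out single arrays, and 0 to 2 over the other alternatives, where it moved in 8 of 14. In the knockout Gfap was 0.80 lower than in Cre GFP without passing (adjusted p = 0.0518), the opposite side from Serpina3n. Gfap does not stand for astrocyte genes as a whole. Of the 10 astrocyte markers described below 2 rose in the knockout and 0 fell by limma, where 2.51% of all genes rose. At an unadjusted p under 0.05 there were 5 of them, and their median was 0.02.

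The other serpins were then compared in the same way. Of 19 other clade A serpins listed, 8 were bright enough to test, and with active CRHR1 0 passed by limma (0 also at an unadjusted p under 0.05, median -0.16). In the knockout 1 of the 8 rose, Serpina9, known from germinal centre B cells (1.08, SE 0.24, adjusted p = 0.0289), and leaving out single arrays gave 0 to 3 such calls, 0 without knockout array 2, 4 or 5 or Cre GFP array 1, 2, 3 or 4, and 3 without knockout array 1. Serpina1a and Serpina1c, near-identical genes of alpha-1-antitrypsin, were higher by 2.10 (SE 0.75, adjusted p = 0.139) and 2.29 (SE 0.62, adjusted p = 0.0593) without passing, and the list median was 0.52.

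The knockout arrays differed widely for these genes. Serpina1c read -4.68, -1.91, -4.57, -1.47 and -1.20 on knockout arrays 1 to 5, with -5.63 to -4.51 in Cre GFP and -5.68 to -4.62 with active CRHR1. Serpina1a read -5.56, -1.58, -4.92, -1.19 and -1.15 on the knockout arrays. Arrays 2, 4 and 5 were thus the 3 highest for both, as for Serpina3i and Serpina3n. Array 3 was near the control for both Serpina1 genes, whereas for Serpina3i it lay above every Cre GFP array. Of the 7 hepatocyte markers Alb, Apoa1 and Ahsg were not well above background on any of the 15 arrays. The other 4, Apoa2, Cyp2e1, Tat and Serpina1a, were so on all 15 and were tested. Of these 0 passed in either comparison with Cre GFP by limma (1 at an unadjusted p under 0.05 in each). Their mean level was -2.74, -1.54, -2.44, -1.21 and -1.50 on knockout arrays 1 to 5, with arrays 2, 4 and 5 again highest. It lay between -2.58 and -2.06 in Cre GFP and between -2.59 and -1.70 with active CRHR1. Serpina1a is itself part of this mean, and the mean without it was not examined. Of the 15 genes of the liver acute phase list 5 could be tested, and 0 passed in either comparison by limma (0 at an unadjusted p under 0.05).

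Of 13 tested serpins of other clades 3 rose with active CRHR1 and 0 fell. They were Serpinf2, alpha-2-antiplasmin (1.43, SE 0.34, adjusted p = 0.0203), Serping1, the C1 inhibitor (0.81, SE 0.19, adjusted p = 0.0164), and Serpinb9, an intracellular inhibitor of granzyme B (0.44, SE 0.11, adjusted p = 0.0279). In the knockout Serpinb1a, an inhibitor of neutrophil proteases (0.61, SE 0.13, adjusted p = 0.018), and Serpind1, heparin cofactor II (0.44, SE 0.11, adjusted p = 0.0363), rose and 0 fell. The 3 calls with active CRHR1 dropped to 1 without Cre GFP array 3 or 5 or active array 1, 4 or 5. The 2 in the knockout dropped to 1 without knockout array 2, 3, 4 or 5, Cre GFP array 1, 2 or 3 or active array 3, and to 0 without Cre GFP array 4.

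**Figure D4:**
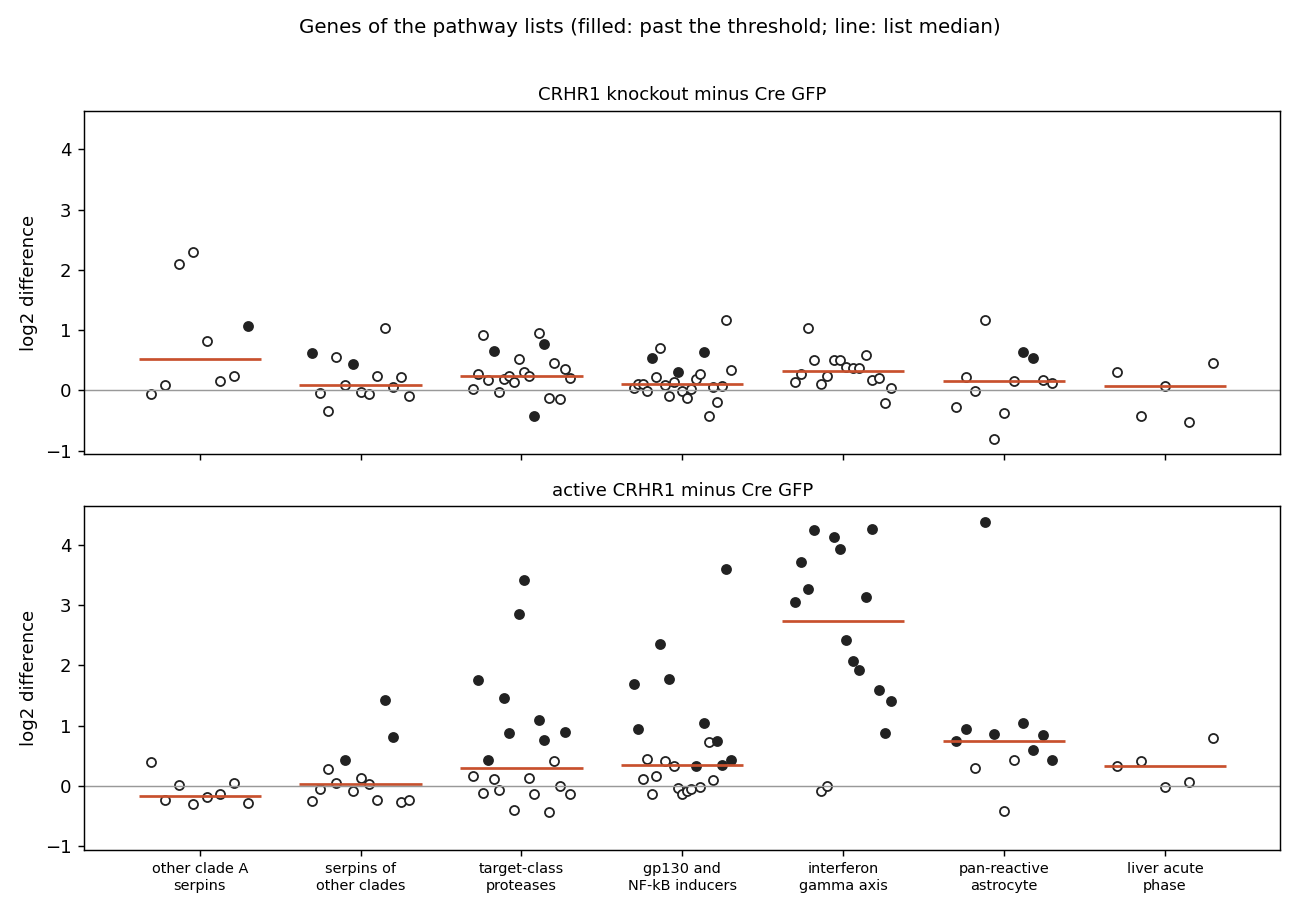
Difference from Cre GFP (log2) of every tested gene of the 7 pathway lists, in the knockout (upper) and with active CRHR1 (lower), filled where the adjusted p was under 0.05, with a line at the list median. The interferon gamma list stands highest with active CRHR1, with 14 of 16 genes filled and a median of 2.73, against a median of 0.32 in the knockout.

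Markers of some immune cells rose with active CRHR1 and those of others did not pass. These are bulk samples, in which more cells of a type and more RNA per cell cannot be told apart. With active CRHR1 6 of 10 microglia markers and 4 of 6 T cell markers rose and 0 fell, as did 2 of 6 of monocytes and macrophages. Of all tested genes 5.19% rose. The T cell marker Cd3g and the monocyte marker Ccr2 entered the test only through their active CRHR1 arrays. Each was measured on 4 active and 3 knockout arrays, and on 1 and 0 Cre GFP arrays. A rise of these 2 markers is therefore a description only. Of the 6 NK cell markers only Eomes and Klre1 could be tested, and 0 passed by limma (0 at an unadjusted p under 0.05, median -0.21). Eomes is also a listed marker of mitral and tufted cells of the bulb. Ncr1, Klrb1c, Klrk1 and Klra8 were too dim to test, Klra8 being measured on 3 active arrays and 1 Cre GFP array. Whether NK cells changed can therefore not be read from these markers. Of the neutrophil markers 0 of 6 passed by limma (0 at an unadjusted p under 0.05, median 0.42). The summed level of the microglia markers was 165.0 to 205.5 times the 75th percentile signal on the active arrays, 112.5 to 138.2 on the Cre GFP arrays and 115.6 to 141.0 on the knockout arrays. For the T cell markers it was 2.72 to 5.08, 2.81 to 3.34 and 2.89 to 3.99, the lowest active array being array 2. Cd3e and Cd4 were measured on all 15 arrays, and Cd8a on 2 active arrays and 1 knockout array. The part of these cells in the Serpina3f and Serpina3g levels was not tested.

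Astrocyte markers, 10 in all, gave 1 higher (Gfap) and 1 lower with active CRHR1, and their summed level was 309.9 to 377.6, against 347.4 to 421.5 in Cre GFP and 325.2 to 457.2 in the knockout. Markers of granule cells and other bulb interneurons, a class that holds the CRHR1+ granule cells of the labels, were all well above background on all 15 arrays and gave 0 of 12 higher and 4 lower with active CRHR1. In the knockout 4 of 6 mural cell markers rose. Neutrophil markers were higher in the knockout with 0 of 6 passing by limma and 6 of 6 at an unadjusted p under 0.05 (median 1.44). Their summed level was 2.69 to 14.4 there, against 1.96 to 3.94 in Cre GFP, and was highest on knockout array 4 and lowest on array 5, a different order from that of Serpina3i and Serpina3n. The part of these cells in the Serpina3i and Serpina3n levels was not tested.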

How the data were processed

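Per the labels' protocols, total bulb RNA was extracted with TRIzol, and 100 ng per mouse was amplified and labelled with Cy3. The deposited scanner files give spot intensities, per the file headers from Agilent Feature Extraction 10.7.3.1 after background subtraction within each array, with its flags. The authors' series values are a linear ratio, each processed intensity divided by its array's median, as found by comparison with the scanner files.

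Control spots and 1467 spots with outlier flags were left out, and 0 spots were saturated. Each array's 75th percentile (664 to 1171) was subtracted from the processed intensity on the log2 scale. Probes well above background on at least 4 of 5 arrays of a group were kept (33968). All 15 arrays were fitted together with limma 3.58.1 (lmFit, eBayes) in R 4.3.3, with Benjamini-Hochberg adjustment over all kept probes and a threshold of 0.05. The code was tested on simulated data. A listed gene was its kept probe of highest mean. Each group holds 5 mice, and the limma p-values set a difference against the spread between mice within groups. That spread is estimated over all groups together and moderated across probes, and the main fit holds no slide term. The number of arrays limits the precision.

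The genes of the set and all lists were chosen with earlier results of these data known. Named were every probe of the set, the 5 genes most correlated with Serpina3f and with Serpina3n, up to 4 genes per list and comparison (smallest p in the knockout, largest difference with active CRHR1), and Crhr1. Other list genes, among them Serpina1a, Serpina1c, Gfap in the knockout and the marker genes, were named after their values were seen. Same-numbered arrays of different groups correlated in their deviations at -0.207 to 0.399 over 15 pairs, so the numbers did not pair the mice. Alternatives covered scaling, background correction, the authors' values, filters, slide, spread and leaving out each array.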

Additional observations from a re-analysis of the deposited data

Results flagged for a closer look

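Of 24 groups of 5 arrays checked, 8 probes in 3 groups each, 2 had an array far from the others, and chance alone flags about 1 in 20 groups. Serpina3g on Cre GFP array 2 read -2.196, with the next highest array of that group at -3.78, a gap of 0.799 of the group's range (critical value 0.71). Serpina3m on knockout array 2 read -5.687, with the next at -6.444 and a gap of 0.76 of the range, and neither reading was well above background.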

How the results depend on the processing

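No difference of a tested Serpina3 probe from Cre GFP changed sign under any alternative run. In the knockout comparison (0 of 5 Serpina3 probes passing), 1 passed with quantile normalization (Serpina3i, adjusted p = 0.0488), 1 with normexp (Serpina3n, 0.0429), 1 with slide as a random block (Serpina3i, 0.048), 2 with an intensity trend and 2 with array weights. Leaving out single arrays gave 0 to 2, the 2 without knockout array 1. For active CRHR1 against Cre GFP, where the count of 3 past the threshold is a description of the arrays that chose the set, it was 1 among probes measured on all 15 arrays, 1 within slide 2 and 2 to 3 leaving out arrays, from which nothing is read. Over the alternatives other than leaving out arrays, genes higher with active CRHR1 numbered 8 to 14 of 16 for the interferon gamma list, 1 to 12 of 23 for gp130 and NF-kB, 2 to 10 of 20 for proteases and 1 to 8 of 11 for reactive astrocytes, the lowest each within slide 2. Against the knockout, Serpina3f was higher by 1.80 with normexp and by 4.90 with slide as a block.

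Counts over all probes, which set the background shares, moved more. For the knockout against Cre GFP (1144 probes, 55.9% higher) the count was 550 with median centring (30.5% higher), 610 with the authors' values (31% higher), 552 without a filter, 487 with slide as a fixed block, 726 with the replicate block, 614 with the 2 groups alone, 164 within slide 1, 2133 with array weights and 558 to 1146 leaving out arrays. For active CRHR1 against Cre GFP (2878, 44.2% higher) it was 1642 with median centring (52.9%), 1659 with the authors' values (50.5%), 1572 without a filter (62.8%), 1260 with slide as a fixed block (64.3%), 1885 with the replicate block, 387 within slide 2, 7274 with array weights (32.6%) and 1456 to 4406 leaving out arrays. For active CRHR1 against the knockout (8705, 37.1% higher) it was 5350 with median centring (48.3%), 5370 with the authors' values (48.4%), 837 with slide as a fixed block, 13242 with slide as a random block and 5147 to 9719 leaving out arrays. The cause was not tested. Signal over background limits Serpina3m, Serpina3h and the second probes of Serpina3f and Serpina3i. The replicate numbers did not pair the mice, with 4 of 15 arrays correlating best with their own number.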
